A study of Mus musculus with 8 samples.

Results

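The genes described are 10 members of the Wnt pathway that act in the peripheral retina and ciliary margin: the ligands Wnt2b, Wnt5a, Wnt5b and Wnt16, the secreted inhibitors Sfrp1 and Dkk1, the R-spondins Rspo1 and Rspo3, and the target genes Axin2 and Lef1. They were taken by gene symbol from a given list, and all 10 were found among the 23284 genes of the count tables. RNA was sequenced from microdissected peripheral retina of mice at postnatal day 12, in 4 libraries labelled Rb null and 4 labelled Rb null, TET-MYCN. Rb-null mice carry floxed alleles of the retinoblastoma gene Rb1 and a Cre recombinase transgene under the retinal alpha enhancer of Pax6. The TET-MYCN group carries the same Cre, a Rosa26 allele from which Cre releases the tetracycline transactivator rtTA, and a MYCN transgene under a tetracycline-responsive element (TRE). Its genotype label and the series title call it Rb-null as well, whereas the design text does not repeat the floxed Rb1 alleles for it, and the labels used here state no doxycycline treatment. The enhancer is active in part of the retina only, so the tissue may hold cells without Cre.

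Wnt proteins are secreted lipid-modified ligands that bind Frizzled receptors and the co-receptors Lrp5 and Lrp6. In the canonical branch this stabilizes beta-catenin, which enters the nucleus and activates genes together with TCF and LEF factors, whereas Wnt5a and Wnt5b are best known for signalling without beta-catenin. R-spondins raise the amount of Frizzled at the cell surface, secreted Frizzled-related proteins bind Wnts, and the Dickkopf protein Dkk1 blocks the co-receptors. In the eye, Wnt signalling is known for its role at the ciliary margin, the rim between neural retina and ciliary epithelium, where Wnt2b is a classical ligand.

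Promoters were taken from RefSeq for 7 of the 10 genes, and the 250 bases before the start site are given for 4 of them: both target genes, whose fold changes had opposite signs, Wnt16, which had the largest fold change, and Dkk1, which held a motif match. They lie on build GRCm38.p6 at chr11:108920099-108920348 (plus strand) for Axin2, chr3:131110047-131110296 (plus strand) for the first of 4 listed Lef1 starts, chr6:22287977-22288226 (plus strand) for Wnt16 and chr19:30549497-30549746 (minus strand) for Dkk1. Capitals mark a match to the TCF/LEF core.
Axin2: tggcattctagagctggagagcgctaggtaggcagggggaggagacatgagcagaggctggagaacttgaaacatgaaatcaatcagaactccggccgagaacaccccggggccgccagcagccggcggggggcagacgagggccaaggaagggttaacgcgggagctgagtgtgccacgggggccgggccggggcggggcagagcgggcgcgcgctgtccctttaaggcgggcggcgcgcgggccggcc
Lef1: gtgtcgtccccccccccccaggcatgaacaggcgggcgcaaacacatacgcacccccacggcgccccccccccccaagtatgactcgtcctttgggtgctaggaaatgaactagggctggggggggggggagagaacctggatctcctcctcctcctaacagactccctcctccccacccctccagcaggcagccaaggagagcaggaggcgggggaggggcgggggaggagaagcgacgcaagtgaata
Wnt16: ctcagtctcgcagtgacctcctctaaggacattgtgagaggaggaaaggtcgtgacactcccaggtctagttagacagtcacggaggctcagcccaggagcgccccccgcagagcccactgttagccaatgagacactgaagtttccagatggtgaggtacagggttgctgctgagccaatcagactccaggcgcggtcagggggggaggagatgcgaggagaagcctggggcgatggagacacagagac
Dkk1: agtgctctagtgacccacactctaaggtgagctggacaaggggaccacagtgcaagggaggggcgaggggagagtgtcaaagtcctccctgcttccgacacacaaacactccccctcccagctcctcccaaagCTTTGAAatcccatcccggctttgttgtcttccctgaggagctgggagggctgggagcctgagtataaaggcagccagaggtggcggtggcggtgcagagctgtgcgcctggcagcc

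The TCF/LEF core was searched as CTTTGAT and CTTTGAA on both strands, and the E-box, a site of MYC proteins, as the palindrome CACGTG, in windows of 300 bases from 250 before to 50 after each start. Dkk1 had a TCF/LEF core at -117, counted from the start site, and the third Wnt5b start had one at -71. The fourth Lef1 start had an E-box at -79. The other windows of the 7 genes held neither motif, Axin2 and Wnt16 among them. Over all 32851 windows 8.65% held a TCF/LEF core and 7.15% an E-box. The motifs do not overlap each other, a match does not show a bound site, and the absence of these letters in a short window says nothing of sites elsewhere.

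Per library, gene counts ran from 14872131 to 22873979, so 3 counts were worth between 0.130 and 0.202 CPM. CPM are counts scaled to equal library sizes, adjusted by trimmed mean of M-values (TMM), and a log2 fold change is of TET-MYCN over Rb-null, followed by its standard error (SE). Mycn and Rb1, the genes named in the genotypes, had log2 fold changes of 0.07 ± 0.28 and -0.06 ± 0.14 (adjusted p = 0.934 and 0.883, edgeR). Counts over a whole gene do not separate a floxed exon or a transgene, so they do not check the labels. Rod markers were present in all 8 libraries, their 12 genes with Rb-null sums of 4226 to 19572 and TET-MYCN sums of 2978 to 7156 CPM. In TET-MYCN 7 of them were lower and 0 higher at an unadjusted p under 0.05 (edgeR), against 7.72% and 8.06% of all genes tested. Lens markers stood apart in Rb-null 2 and 3, with sums of 287 and 540 CPM against 14.0 to 98.8 CPM in the other libraries. Without this pair the log2 fold changes were -0.33 for Axin2, 0.80 for Lef1, 0.58 for Sfrp1 and 3.39 for Wnt16. Whether the libraries of a group came from different animals is not in the labels, and the p-values therefore describe only the variation among these libraries, part of which may be technical. In tissue RNA, fewer cells of a type and less RNA per cell cannot be told apart.

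None of the 10 genes differed between the groups at an adjusted p under 0.05 by edgeR's quasi-likelihood test over all genes. Enough reads for that test were found for 6 of them (Wnt2b, Wnt5a, Wnt5b, Sfrp1, Axin2 and Lef1), and 0 of these 6 were called, against 0.0596% (9 of 15106) of all genes tested. At an unadjusted p under 0.05 stood 3 of the 6, Lef1 and Sfrp1 with higher and Axin2 with lower values in the TET-MYCN libraries, against 15.8% of all genes tested (8.06% higher and 7.72% lower). DESeq2 and limma-voom also called 0 of the 6, each with 3 at an unadjusted p under 0.05. The 4 genes with few reads, Wnt16, Dkk1, Rspo1 and Rspo3, are described by their counts. Of the 10 genes, Axin2 was the 1 with all TET-MYCN libraries below all Rb-null libraries, a pattern found in 3.29% of all genes tested. Wnt16 was the 1 with all TET-MYCN libraries above all Rb-null libraries, a pattern found in 4.36% of all genes tested. Wnt16 itself had too few reads to be among those, and of the 6 tested genes 0 had this pattern. Its groups were parted by 3 counts in Rb-null 1 (0.153 CPM) against 4 in TET-MYCN 2 (0.173 CPM). Both patterns were the same when counts were scaled by library totals alone.

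**Figure D1:**
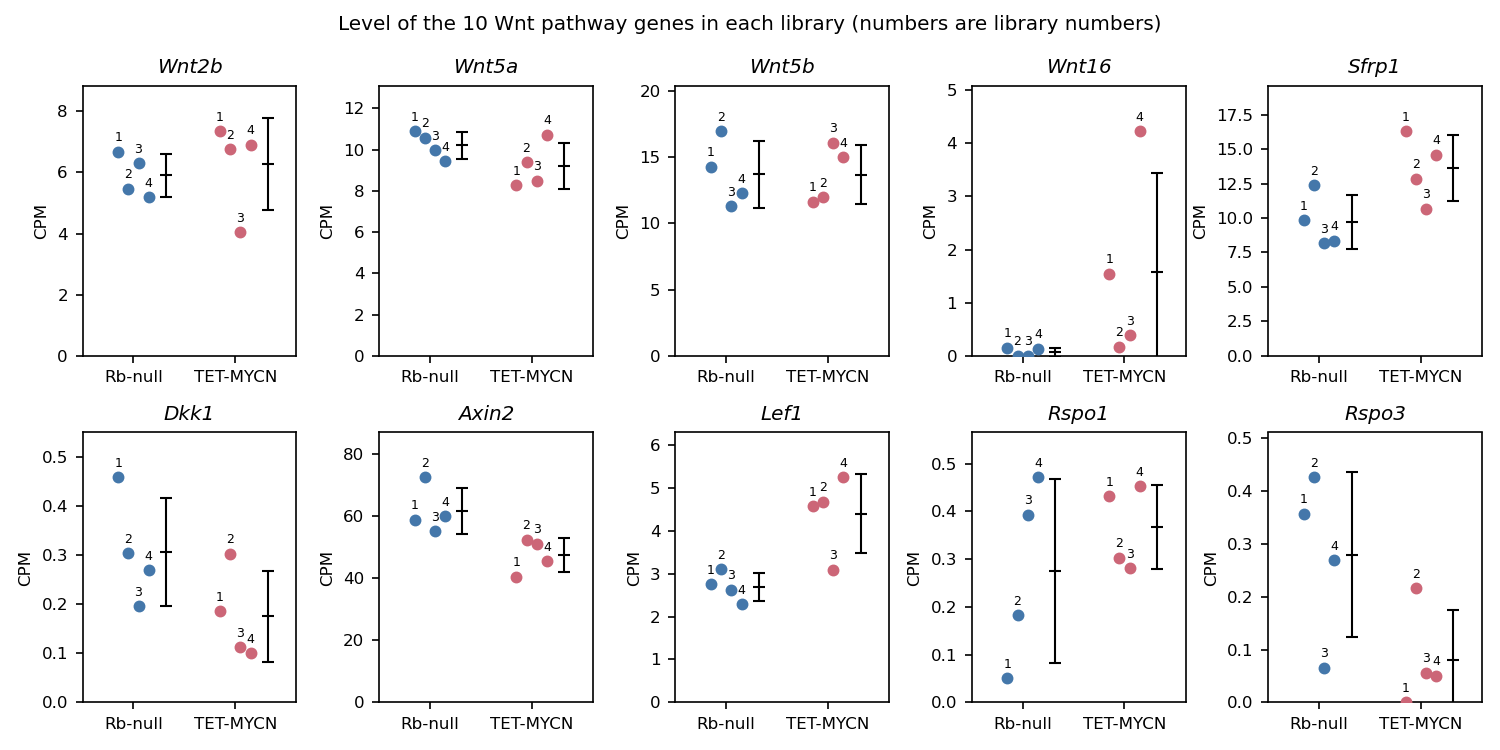
Level of each of the 10 genes in CPM (vertical axes, each from 0) in the 4 Rb-null and 4 TET-MYCN libraries. Points are libraries, numbered as in the labels, and the black marks give the mean and SD of each group (bars that would pass below 0 end there); Axin2 lies below and Wnt16 above its Rb-null values in every TET-MYCN library.

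Among the ligands, Wnt2b had Rb-null levels of 6.67, 5.47, 6.29 and 5.18 and TET-MYCN levels of 7.35, 6.75, 4.05 and 6.90 CPM (libraries 1 to 4 of each group). The groups overlapped, with TET-MYCN 3 the lowest of all 8 libraries. The log2 fold change was 0.08 ± 0.21, with a 95% confidence interval from -0.38 to 0.55 (adjusted p = 0.889, edgeR), and it was -0.0055 without TET-MYCN 1 and 0.24 without TET-MYCN 3. Wnt5a, a ligand of the beta-catenin-independent branch, had Rb-null levels of 10.9, 10.6, 9.96 and 9.42 and TET-MYCN levels of 8.28, 9.39, 8.49 and 10.7 CPM. The groups overlapped here too, TET-MYCN 4 lying among the higher Rb-null libraries. Its log2 fold change was -0.15 ± 0.14, with an interval from -0.46 to 0.16 (adjusted p = 0.652, edgeR), and -0.23 without TET-MYCN 4.

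Wnt5b, the close relative of Wnt5a, had Rb-null levels of 14.3, 16.9, 11.3 and 12.2 and TET-MYCN levels of 11.6, 11.9, 16.1 and 14.96 CPM. High and low libraries occurred in both groups. The mean ± SD was 13.7 ± 2.51 and 13.6 ± 2.21 CPM (n = 4 each), and the log2 fold change of -0.0047 ± 0.17 had an interval from -0.39 to 0.38 (adjusted p = 0.994, edgeR). Its sign turned with single libraries left out, between -0.09 and 0.11. In the annotation Wnt5b overlaps Fbxl14 on the opposite strand, and the sources used here do not give the use of strand in counting, so their reads may not be fully separated.

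Wnt16, a ligand known from bone and joint tissue, had Rb-null counts of 3, 0, 0 and 2 and TET-MYCN counts of 25, 4, 7 and 84. All Rb-null libraries were at or under 3 counts, and TET-MYCN 4 and 1 held most of the reads. As levels these were 0.153, 0, 0 and 0.135 against 1.54, 0.173, 0.393 and 4.23 CPM. The 120 counts in the TET-MYCN libraries against 5 in the Rb-null libraries, scaled to the gene counts, gave a ratio of 20.8 with a 95% interval of 8.68 to 65.3 (exact binomial, counting error only). Without a filter on low counts the log2 fold change was 4.28 ± 1.23 (adjusted p = 0.211, edgeR), and 3.06 without TET-MYCN 4 (adjusted p = 0.449). DESeq2 called Wnt16, at 4.43 ± 1.11 (adjusted p = 0.00691).

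Some markers of the ciliary margin moved with the Wnt16 values. Gja1, which codes for connexin 43, ranged from 10.4 to 13.7 CPM among Rb-null libraries and was 79.1, 14.4, 28.3 and 90.6 CPM across the TET-MYCN ones. The homeobox gene Otx1 stood at 0.393 to 1.40 CPM and at 6.43, 0.909, 3.32 and 11.9 CPM, and Bmp4 at 0.471 to 0.764 CPM and at 7.29, 1.30, 2.92 and 8.26 CPM. Libraries 1 and 4 were thus the highest for these genes and for Wnt16. Of the 17 tested genes in the list of ciliary epithelium, iris and pigment epithelium, 11 had positive and 6 negative log2 fold changes. At an unadjusted p under 0.05 (edgeR), 6 had higher and 1 had lower values, against 8.06% and 7.72% of all genes tested. The summed level of all 22 listed genes overlapped, with a Rb-null range of 768 to 902 and a TET-MYCN range of 777 to 1047 CPM. In TET-MYCN 1 to 4 the sum was 777, 789, 795 and 1047 CPM, so TET-MYCN 1 was the lowest of its group. In every library at 0 were 0 of the 22. The part of these cells in the Wnt16 values was not tested.

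Of the secreted inhibitors, Sfrp1, a Frizzled-related protein that binds Wnts, had Rb-null levels of 9.83, 12.4, 8.19 and 8.34 and TET-MYCN levels of 16.3, 12.9, 10.7 and 14.6 CPM. The groups overlapped through Rb-null 2 and TET-MYCN 3. The log2 fold change was 0.49 ± 0.18, with an interval from 0.08 to 0.90 (adjusted p = 0.256, edgeR). It stayed between 0.38 and 0.63 with each library left out. TET-MYCN 1 and 4 were again the highest, as for Gja1, Otx1 and Bmp4 above, though not for the sum of their list.

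Dkk1, which blocks the co-receptors Lrp5 and Lrp6, had Rb-null counts of 9, 5, 3 and 4 and TET-MYCN counts of 3, 7, 2 and 2. These levels lay at 0.197 to 0.458 and 0.101 to 0.303 CPM, near the level of 3 counts, and the groups overlapped. The count ratio was 0.579 with a 95% interval of 0.272 to 1.19 (exact binomial), so no difference was detectable at this depth. Without a filter the log2 fold change was -0.78 ± 0.51 (adjusted p = 0.546, edgeR), from -0.50 without Rb-null 1 to -1.22 without TET-MYCN 2.

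The R-spondins were near the limit of detection. Rspo1 had Rb-null counts of 1, 3, 6 and 7 and TET-MYCN counts of 7, 7, 5 and 9, with overlapping groups. Its count ratio was 1.43 (95% interval 0.755 to 2.78, exact binomial), and its log2 fold change of 0.46 ± 0.55 was 0.08 without Rb-null 1 and 0.85 without Rb-null 4 (adjusted p = 0.744 with all 8 libraries, edgeR without a filter).

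Rspo3, which is also known from blood vessel growth, had Rb-null counts of 7, 7, 1 and 4 and TET-MYCN counts of 0, 5, 1 and 1. As levels, Rb-null 3 lay among the low TET-MYCN libraries, and TET-MYCN 2, the highest of its group, lay below the other 3 Rb-null libraries. The count ratio was 0.320 with a 95% interval of 0.114 to 0.794 (exact binomial), an interval for counting error that leaves out the spread between libraries. With that spread, the log2 fold change was -1.599 ± 0.75 with an interval from -3.23 to 0.04 (adjusted p = 0.384, edgeR without a filter), and it was -2.72 without TET-MYCN 2.

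Axin2, a scaffold of the beta-catenin destruction complex and a classical feedback target of the pathway, had Rb-null levels of 58.8, 72.4, 55.1 and 60.0 and TET-MYCN levels of 40.5, 52.4, 51.1 and 45.5 CPM. The highest TET-MYCN library lay below the lowest Rb-null library, Rb-null 3, and Rb-null 2 was the highest of all. The mean ± SD was 61.6 ± 7.52 and 47.4 ± 5.48 CPM (n = 4 each). The log2 fold change was -0.38 ± 0.12, with an interval from -0.65 to -0.11 (adjusted p = 0.208, edgeR), and stayed between -0.44 and -0.29 with each library left out. Müller glia and astrocyte markers tended in the same direction. Their 12 genes had overlapping sums, of 5581 to 7275 (Rb-null) and 4449 to 6228 CPM (TET-MYCN). Of the 12, 8 were negative and 4 positive, with 5 lower and 0 higher at an unadjusted p under 0.05. The 10 endothelial markers summed to 443 to 509 and 357 to 493 CPM, with 3 lower and 0 higher at that level. Over all genes tested, 7.72% were lower and 8.06% higher. None of these 22 markers was at 0 in every library. Lower too were 7 of 12 rod, 9 of 11 lens and 4 of 15 ganglion and amacrine markers, with 0 higher in each list. Of the ciliary and progenitor markers, 6 and 5 were higher and 1 of each lower. Of 11 tested pericyte, smooth muscle and mesenchyme markers, 3 were higher and 2 lower. Of 10 macrophage and microglia markers, 1 was higher and 0 lower. The part of any of these cell types in the Axin2 values was not tested.

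Lef1, a DNA-binding partner of beta-catenin whose own gene responds to the pathway, had Rb-null levels of 2.75, 3.10, 2.62 and 2.29 and TET-MYCN levels of 4.57, 4.67, 3.09 and 5.24 CPM. The groups met at one point, TET-MYCN 3 being at the level of Rb-null 2, while TET-MYCN 1, 2 and 4 lay above all Rb-null libraries. The mean ± SD was 2.69 ± 0.335 and 4.39 ± 0.916 CPM (n = 4 each). The log2 fold change was 0.71 ± 0.21, with an interval from 0.23 to 1.18 (adjusted p = 0.194, edgeR), and stayed between 0.61 and 0.84 with each library left out. The smallest adjusted p, 0.0599, came without TET-MYCN 3 (edgeR).

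A ratio of the target genes Lef1 and Axin2 within each library needs no scaling between libraries, but does not tell which of them differed. Per 100 Axin2 counts, the Rb-null libraries held 4.68, 4.28, 4.76 and 3.82 Lef1 counts and the TET-MYCN libraries 11.3, 8.91, 6.05 and 11.5. The groups did not overlap, at 4.38 ± 0.431 and 9.44 ± 2.55 (mean ± SD, n = 4 each). This ratio was chosen after both genes were seen to have fold changes of opposite sign, so it is given with no test.

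**Figure D2:**
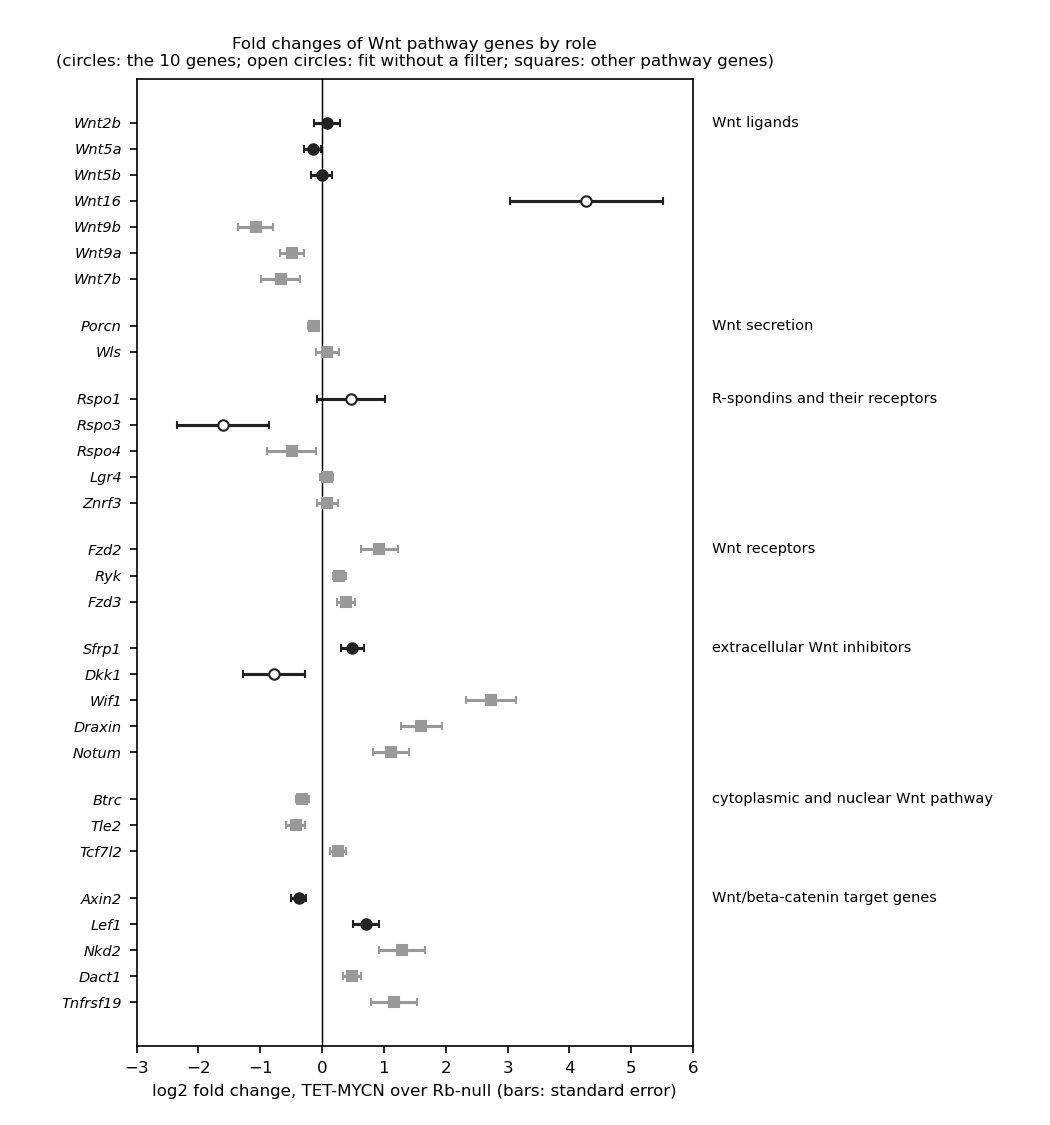
Log2 fold change of TET-MYCN over Rb-null (horizontal axis; bars are SE) for the 10 genes (circles, open where the value is from the fit without a filter on low counts) and for other pathway genes (grey squares), grouped by role. Axin2 lies at -0.38 and Lef1 at 0.71 within the target genes, and Wnt16 at 4.28 has the widest bar.

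Compared per kilobase of merged exons, so that long and short transcripts can be set side by side, Axin2 was the highest of the 10 in the Rb-null libraries, at 11.2 ± 1.36 CPM per kilobase (SD, n = 4). Wnt5b followed at 5.16 ± 0.945, Sfrp1 at 2.22 ± 0.445, Wnt2b at 1.41 ± 0.166, Wnt5a at 1.31 ± 0.0837 and Lef1 at 0.306 ± 0.0381 CPM per kilobase. Neighbours in this order did not overlap in their 4 values, with the exception of Wnt2b and Wnt5a. Rspo1, Dkk1, Rspo3 and Wnt16 came last, at 0.142, 0.126, 0.0903 and 0.0165 CPM per kilobase, and each overlapped its neighbour, whereas Lef1 lay above Rspo1. In the TET-MYCN libraries the first 6 genes had the same order, from 8.61 ± 0.995 for Axin2 to a range of 0.352 to 0.596 CPM per kilobase for Lef1. Wnt16 came next at 0.364 ± 0.427 CPM per kilobase and overlapped Lef1. With the longest transcript as the length, the order was the same, but in the Rb-null libraries Sfrp1 and Wnt2b overlapped and Wnt2b and Wnt5a did not, and in the TET-MYCN libraries Wnt5a and Lef1 overlapped.

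**Figure D3:**
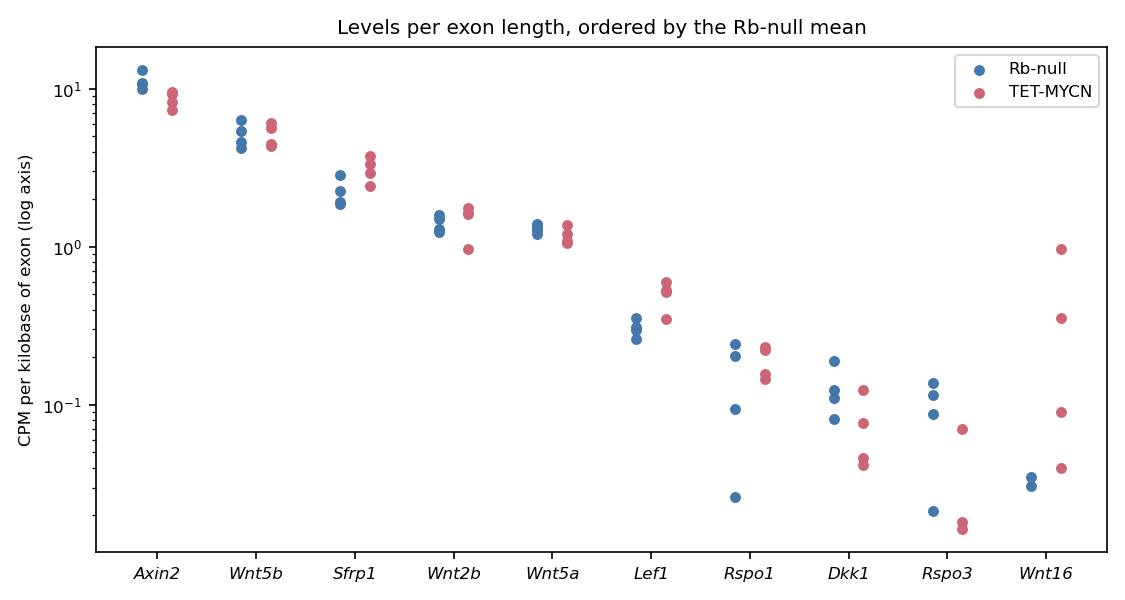
Level of each gene in CPM per kilobase of merged exons (logarithmic vertical axis) in each library, ordered by the Rb-null mean. Libraries with 0 counts cannot be drawn on this axis, which leaves out Rb-null 2 and 3 for Wnt16 and TET-MYCN 1 for Rspo3; Axin2 is highest in both groups.

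The rest of the pathway was read from lists by role, 92 genes in all, 75 of them tested. Of these 75, 0 were called at an adjusted p under 0.05 (edgeR), 16 had higher and 6 had lower values in the TET-MYCN libraries at an unadjusted p under 0.05, and 1 passed an adjusted p under 0.1. Over all 15106 genes tested, 8.06% were higher and 7.72% lower at that unadjusted level, and 36 genes passed an adjusted p under 0.1. DESeq2 called 4 of the 75, against 538 of all 19713 genes in its fit, with 25 of the 75 and 2667 of all at an unadjusted p under 0.05. With limma-voom 0 of the 75 were called and 22 had an unadjusted p under 0.05, against 0 and 2262 of all 15106. The median log2 fold change over the 75 was 0.09, against 0.01 over all genes tested. Among the 9 tested ligands the median was -0.0047, and 0 had higher and 2 had lower values at an unadjusted p under 0.05. Wnt9b stood at 2.17 ± 0.647 and 1.03 ± 0.231 CPM without overlap (log2 fold change -1.07 ± 0.29, adjusted p = 0.166, edgeR). Wnt9a, its paralog, had -0.48 ± 0.19 and Wnt7b -0.67 ± 0.31. For Porcn and Wls, which modify and export Wnts, the log2 fold changes were -0.13 ± 0.09 and 0.09 ± 0.19.

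All 16 receptor genes were tested, 12 of them with positive log2 fold changes and a median of 0.33, where 52.2% of all genes tested were positive. At an unadjusted p under 0.05, 6 had higher and 0 had lower values, against 8.06% and 7.72% of all genes tested. Retinal progenitor markers had values in the same direction: 11 of 14 were positive, with a median of 0.30, and 5 had higher and 1 had lower values at that level. The 14 are not separate from the pathway lists, as they include Fzd5 (a receptor), Sfrp2 (an inhibitor) and Ccnd1 (a target gene). Sfrp2 and Ccnd1 were among the 5 higher ones, and Fzd5 had -0.30 ± 0.18. The summed level of the 14 overlapped, at 2230 to 3470 (Rb-null) and 2667 to 3360 CPM (TET-MYCN), and 0 of the 14 were at 0 in every library. Among them Hes5, a Notch target of progenitors, stood at 19.7 to 41.9 and 58.8 to 92.9 CPM without overlap. The part of progenitors in the values of the receptors, Lef1 and Sfrp1 was not tested. Fzd2 stood at 12.3 ± 5.10 and 23.5 ± 7.43 CPM (0.93 ± 0.30), Fzd3 had 0.39 ± 0.15, and the tyrosine kinase-like receptor gene Ryk stood at 74.0 ± 8.53 and 89.8 ± 6.77 CPM without overlap (0.28 ± 0.11). Their adjusted p lay between 0.208 and 0.266 (edgeR). Of the R-spondins and their receptors, 5 of 9 were tested and 0 reached an unadjusted p under 0.05. Lgr4, a receptor for R-spondins, and Znrf3, the ubiquitin ligase they counter, had log2 fold changes of 0.08 ± 0.10 and 0.08 ± 0.17, and Rspo4 had -0.49 ± 0.40.

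Some other secreted inhibitors stood further apart than Sfrp1. Wif1, Wnt inhibitory factor 1, had Rb-null levels of 0.306, 0.668, 0.393 and 0.404 and TET-MYCN levels of 3.27, 1.51, 2.59 and 4.53 CPM. Every TET-MYCN library lay above every Rb-null library, at a low level. The log2 fold change was 2.73 ± 0.40 (adjusted p = 0.0569, edgeR), the smallest adjusted p of the pathway. Draxin (2610109H07Rik in the files), an axon guidance protein that also blocks Wnt signalling, stood at 13.7 ± 3.32 and 41.6 ± 20.5 CPM without overlap (1.604 ± 0.33, adjusted p = 0.150). Notum, the enzyme that removes the lipid from Wnts, stood at 1.37 ± 0.285 and 2.99 ± 1.05 CPM without overlap (1.11 ± 0.29, adjusted p = 0.164). DESeq2 called Wif1, Draxin, Notum and, among the target genes, Nkd2. Wif1 was also called by edgeR without a filter and without TET-MYCN 2 or TET-MYCN 3, and Draxin and Nkd2 without TET-MYCN 3. Of the 14 tested inhibitors 5 had higher and 1 had lower values at an unadjusted p under 0.05 (8.06% and 7.72% of all genes tested), with a median log2 fold change of 0.08. By sign, 8 were positive and 6 negative. Dkk3, with the highest level of the list, stood at 734 ± 45.2 and 631 ± 59.3 CPM with overlap (-0.22 ± 0.11, adjusted p = 0.367, edgeR). The summed level of the list overlapped, at 842 to 947 (Rb-null) and 750 to 893 CPM (TET-MYCN). Most of this sum was Dkk3, so it says little of the other inhibitors. Dkk3 is also on the list of Müller glia and astrocyte markers.

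Among 20 cytoplasmic and nuclear components, 15 had positive and 5 negative log2 fold changes, with a median of 0.10. At an unadjusted p under 0.05, 0 had higher and 2 had lower values, against 8.06% and 7.72% of all genes tested. The 2 lower ones were Btrc, which marks beta-catenin for degradation (-0.32 ± 0.11), and Tle2, a co-repressor (-0.43 ± 0.15). Tcf7l2, a partner of beta-catenin, had 0.26 ± 0.13. The 9 target genes, Axin2 and Lef1 included, had a median of 0.45, with 5 higher and 1 lower at that level (8.06% and 7.72% of all genes tested), the last being Axin2. By sign, 6 were positive and 3 negative, the latter being Axin2, Nkd1 (-0.30 ± 0.17) and Sp5 (-0.39 ± 0.42). The summed level of the 9 overlapped, at 187 to 214 (Rb-null) and 191 to 221 CPM (TET-MYCN). Nkd2, a feedback inhibitor, stood at 3.41 ± 0.533 and 8.35 ± 4.67 CPM (1.29 ± 0.37), Tnfrsf19 at 4.42 ± 1.04 and 9.96 ± 5.26 CPM (1.17 ± 0.37), and Dact1 at 22.6 ± 2.66 and 31.6 ± 4.999 CPM without overlap (0.48 ± 0.14). Their adjusted p lay between 0.185 and 0.208 (edgeR). In TET-MYCN 1 and 4, Nkd2 was at 9.88 and 14.2 CPM against 5.54 and 3.77 in TET-MYCN 2 and 3, and Tnfrsf19 at 14.7 and 14.3 against 4.89 and 5.96 CPM. These are the libraries in which Gja1, Otx1 and Bmp4 were highest. The sum of their whole marker list did not set TET-MYCN 1 apart, at 777 CPM against a Rb-null range of 768 to 902 CPM. The part of ciliary margin cells in these values was not tested.

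Lef1 had the smallest p of the 6 tested genes. Its log2 CPM over the 8 libraries was set beside 12339 genes with a mean of at least 5 CPM over all 8. The genes that followed it most closely were Cdh20, 2310022B05Rik, Fgd3, Chrna4 and Il17rd. Pearson's r was 0.986, 0.985, 0.984, 0.982 and 0.980 in that order, a description of 8 points that share the difference between the groups and the depth of each library. Cdh20, a cadherin gene, had 36.9 ± 2.10 and 49.4 ± 7.47 CPM, and Il17rd, a membrane regulator of growth factor signalling, had 13.3 ± 1.17 and 19.0 ± 4.03 CPM. Fgd3, at 1.88 ± 0.928 (Rb-null) and 9.38 ± 5.96 CPM (TET-MYCN), reached the mean of 5 CPM only through the TET-MYCN libraries. Each of the 5 had overlapping groups with a low TET-MYCN library, as Lef1 did. Of the other 5 tested genes of the 10, Sfrp1 had the highest r with Lef1, 0.904, and Axin2 the lowest, -0.669; r was not computed for the 4 genes with few reads.

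**Figure D4:**
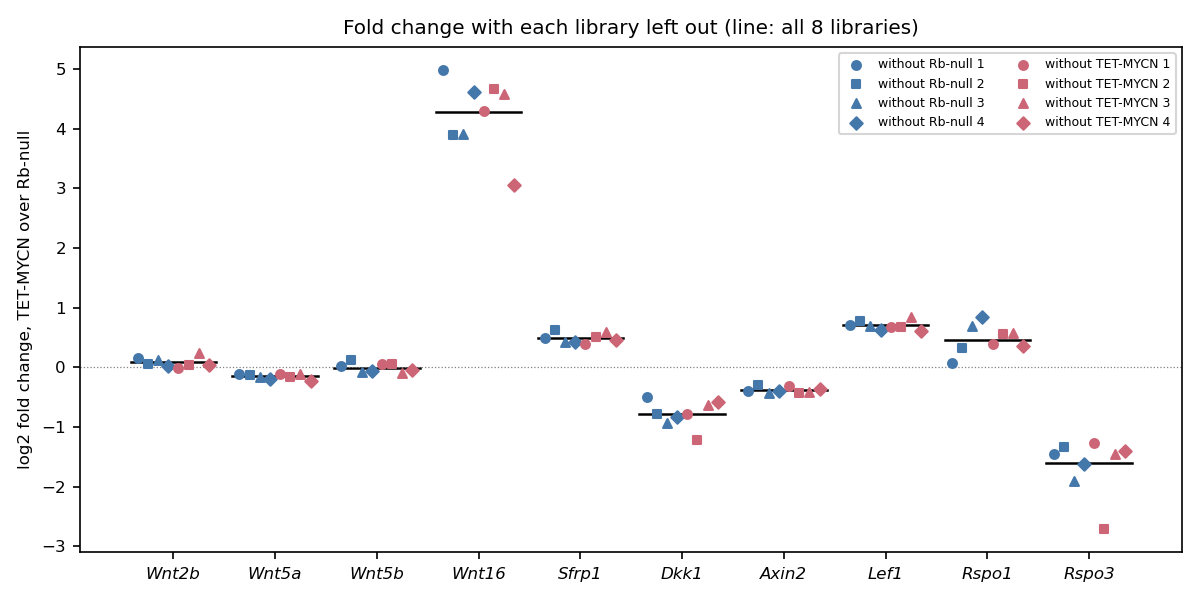
Log2 fold change of TET-MYCN over Rb-null (vertical axis) for each gene with 1 library left out (points, by library) beside the value from all 8 (line). Axin2 stays between -0.44 and -0.29 and Lef1 between 0.61 and 0.84, whereas Wnt16 is 3.06 without TET-MYCN 4 and Rspo3 is -2.72 without TET-MYCN 2.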

How the data were processed

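The authors deposited 1 table of whole-number read counts per gene symbol for each of the 8 libraries, as raw values. CASAVA 1.8.2, TopHat2 2.0.8b, HTSeq 0.5.4p3 and build mm9 are named in the submitters' processing notes; the sources used here give no options, annotation or strand setting. Reads without a single gene, 28.3% to 31.7% per library, were left out. Counts were scaled by TMM, filterByExpr with the group kept 15106 genes, and edgeR 4.0.16 (R 4.3.3; estimateDisp, glmQLFit with robust = TRUE, glmQLFTest, group only) gave p-values adjusted by Benjamini-Hochberg over all genes tested, with a threshold of 0.05. The SE is the log2 fold change over the square root of F, and intervals use the test's degrees of freedom. Genes under the filter were fitted without it.

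Alternatives were other scalings and filters, DESeq2 1.42.0, limma-voom (limma 3.58.1), the replicate number as a block, and libraries left out. The members and lists were chosen with earlier results of these data known. Named are the 10 members, Mycn and Rb1, the 3 other genes of smallest p per pathway list, the 5 genes most like Lef1, and leading genes of the marker lists. Fzd5, Ccnd1, Nkd1 and Sp5 were named after their values were seen. Exon lengths and overlaps came from GENCODE M21 and promoters from RefSeq, both GRCm38, a build other than mm9. Draxin was matched by a RefSeq synonym. Replicates of each group differed by more than counting noise. The script was tested on simulated data. A planned comparison of protein sequences was not run. Figures used Python 3.11.15 and matplotlib 3.10.9.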

Additional observations from a re-analysis of the deposited data

How the results depend on the processing

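Over all genes, 9 were called, and 17 without a filter on low counts, 538 with DESeq2, 0 with limma-voom (though 2262 had an unadjusted p under 0.05, against 2384 in edgeR), 41 without the libraries with most multiply aligned reads (Rb-null 1 and TET-MYCN 3), 0 without the crystallin-rich Rb-null 2 and 3, and 0 to 230 with single libraries left out (132 without TET-MYCN 2, 230 without TET-MYCN 3, at most 1 without any other). Libraries of equal replicate number did not deviate together (r of deviations -0.29 to -0.04 in 4 pairs). These 4 values cannot tell whether libraries shared a litter or batch, and the labels give neither. With the replicate block 3 genes were called. At an adjusted p under 0.1, 1 pathway gene was called, Wif1. Axin2, Lef1, Sfrp1 and Wnt5a kept their sign and stayed uncalled in all 17 alternatives each, and Dkk1 and Rspo1 in all 9. Rspo3 kept its sign in all 9 and stayed uncalled in 8, DESeq2 giving it no adjusted p. Wnt16 was 4.43 with DESeq2, where it was called, and kept its sign in all 10. The near-zero log2 fold changes turned sign: Wnt2b was -0.0055 without TET-MYCN 1 (0.24 without TET-MYCN 3), and Wnt5b was 0.0024 with total counts only, 0.041 without the crystallin-rich pair, and -0.093 to 0.11 with single libraries left out. The fits without a filter that left out single libraries were added after seeing the data. The cause of these changes was not tested. Depth limits Wnt16, Dkk1, Rspo1 and Rspo3.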

Other observations

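Wnt7a, a ligand under the filter on low counts and chosen after its values were seen, had Rb-null counts of 5, 8, 5 and 5 and TET-MYCN counts of 62, 27, 5 and 40. TET-MYCN 3 lay within the Rb-null range and the other 3 above it (log2 fold change 2.35 ± 0.66, adjusted p = 0.194, edgeR without a filter). Zic1, a zinc-finger factor of the ciliary margin list, stood at 17.6 to 35.5 CPM (Rb-null) and at 93.5, 41.8, 30.2 and 149.5 CPM (TET-MYCN 1 to 4), with TET-MYCN 1 and 4 the highest, as for Wnt16. Apcdd1, an inhibitor of Wnt signalling at the membrane, was the inhibitor with lower values, at 41.6 to 50.1 (Rb-null) and 33.8 to 37.4 CPM (TET-MYCN) without overlap (log2 fold change -0.34 ± 0.10, adjusted p = 0.186, edgeR). Sfrp2, a relative of Sfrp1 found in retinal progenitors, stood at 3.77 to 6.38 and 7.10 to 14.1 CPM without overlap (0.90 ± 0.28, adjusted p = 0.197, edgeR). Zic1, Apcdd1 and Sfrp2 were named after their values were seen.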
